A study of Mus musculus with 6 samples.

Results

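Extracellular ATP, ADP, UDP and adenosine act on cells of the brain through P2 and P1 receptors, and 9 genes of this system were followed here: the ATP-gated P2X channels P2rx4 and P2rx7, the G protein-coupled P2Y receptors P2ry1, P2ry6, P2ry12, P2ry13 and P2ry14, the ectonucleotidase Entpd1 and the adenosine A1 receptor Adora1. The 9 symbols were looked up among 32285 genes of the matrices, and each was found once. Single-nucleus libraries of wildtype C57BL/6 mouse brain were compared, 3 taken 6 weeks after sham surgery and 3 taken 6 weeks after 5/6 nephrectomy, the surgical model of chronic kidney disease. The design text places the nuclei in the cortex, although the largest of the neuron classes carried markers of striatal projection neurons, and the age and sex of the mice were not given in the sources used here. No label says that each library came from a different mouse, so p-values measure only the spread between these libraries, which may be technical.

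ATP leaves cells through channels and vesicles or spills from damaged ones, opens P2X channels, and is cut step by step by ectonucleotidases to ADP, AMP and finally adenosine. In the brain P2ry12 is known as a receptor for ADP that directs microglial processes toward sites of injury, P2ry6 as a receptor for UDP linked to phagocytosis, and P2rx7 as the channel whose opening precedes release of interleukin-1β. Entpd1 (CD39) is the membrane enzyme that removes ATP and ADP, and Adora1 is an inhibitory receptor for the adenosine that results.

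Of 42589 deposited barcodes, 40685 nuclei passed the limits on genes and mitochondrial UMIs, and 24974 of them (61.4%) met the marker rule of 1 of 13 broad classes. A class is called by its name with "-like", and no member was among its markers. In all 13 classes the 10 genes highest by fold held between 4 and 7 of the class's own markers and 0 markers of another class. The gate used these same markers, so this count is not an independent check of the classes. There were 423 microglia-like nuclei, between 20 and 167 per library, with a median of 928 UMIs. Levels are given as CPM, the UMIs of a gene for every 1000000 UMIs of that class in a library. A mean ± SD is taken over libraries with at least 20 nuclei of the class, which gave 6 libraries for 8 classes and 4 for endothelial-like nuclei. The libraries differed in depth, with medians from 1001 to 5353.5 UMIs per nucleus kept. Sham 3 and nephrectomy 1 had 14756 and 12637 barcodes against 2637 to 5033 in the other 4. Nephrectomy 1 also stood apart in Malat1, a nuclear RNA, at a median of 604 UMIs per 10000 against 1427 to 1725 in the others. Libraries shared between 1 and 50 barcodes.

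In the GRCm38 annotation (GENCODE M21) P2rx7 (chr5:122643911-122691432) and P2rx4 (chr5:122707544-122729738) lie in a row on the plus strand with 16111 bases between them. P2ry12 (chr3:59216272-59262871), P2ry13 (chr3:59207892-59210882) and P2ry14 (chr3:59113855-59153618) form a cluster on the minus strand, and all 3 sit inside Med12l (chr3:59005825-59318682), a gene of the mediator complex on the plus strand. Whether reads were counted by strand is not given in the sources used here, so a read where 2 of these genes overlap may have been counted to either. P2ry1 (chr3:61002795-61008982, plus strand), P2ry6 (chr7:100937630-100974649, minus strand), Entpd1 (chr19:40612366-40741602, plus strand) and Adora1 (chr1:134199223-134235431, minus strand) lie elsewhere.

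RefSeq's promoter table (GRCm38.p6) matched 8 of the 9 members, with 14 windows. Shown are the 250 bases before a start, 5′ to 3′ on the gene's strand, for 2 members highest in microglia-like nuclei, P2ry13 and Entpd1, and for P2ry14, which was near its lowest there. These windows were chosen because they hold a match. Capitals mark the core letters of the PU.1 motif, GAGGAA or its reverse complement TTCCTC, and of the RUNX motif, TGTGGT or its reverse complement ACCACA. PU.1 and RUNX1 are transcription factors known from myeloid cells.
P2ry13, chr3:59210883-59211132, minus strand: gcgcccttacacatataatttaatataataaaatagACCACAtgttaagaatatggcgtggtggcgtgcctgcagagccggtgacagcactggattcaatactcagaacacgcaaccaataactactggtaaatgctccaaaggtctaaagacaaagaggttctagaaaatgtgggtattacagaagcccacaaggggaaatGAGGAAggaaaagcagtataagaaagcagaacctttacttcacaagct
Entpd1, downstream start, chr19:40659520-40659769, plus strand: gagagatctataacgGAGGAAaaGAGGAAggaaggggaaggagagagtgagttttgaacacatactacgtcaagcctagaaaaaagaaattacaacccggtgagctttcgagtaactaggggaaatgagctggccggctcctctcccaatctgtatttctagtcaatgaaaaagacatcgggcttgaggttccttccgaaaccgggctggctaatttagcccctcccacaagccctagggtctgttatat
P2ry14, inner start, chr3:59131329-59131578, minus strand: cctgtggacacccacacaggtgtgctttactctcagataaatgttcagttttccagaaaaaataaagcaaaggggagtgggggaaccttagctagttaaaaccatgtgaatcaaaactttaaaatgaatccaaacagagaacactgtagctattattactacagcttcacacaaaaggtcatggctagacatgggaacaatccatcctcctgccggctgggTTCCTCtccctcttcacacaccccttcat
The P2ry13 window held 1 PU.1 core and 1 RUNX core, and the Entpd1 window held 2 PU.1 cores, which do not overlap. The P2ry14 window also held 1 PU.1 core, as did its 3 other windows. Of these, chr3:59131119-59131368 overlaps the window shown, and its match is the same site. Of the other members highest in microglia-like nuclei, the P2ry12 window, both P2rx7 windows and the P2rx4 window held 0 of either core, and so did the upstream Entpd1 window (chr19:40612116-40612365). The windows of P2ry1 and Adora1 held 0 as well. Of all 32851 windows of that length in the table, 23.3% held a PU.1 core and 14.05% a RUNX core, so such a match is common and is given only as a description of these letters.

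Among the 9 classes with levels per library, microglia-like nuclei had the highest level of 6 members. P2ry12, the ADP receptor, stood at 665, 524 and 525 CPM in the sham libraries and at 425, 795 and 621 CPM in the nephrectomy libraries. All 6 values lay above the highest value of each of the other 8 classes. Its mean was 592 ± 130 CPM (SD, n = 6) there, against 11.2 ± 5.99 CPM in neuroblast or dividing-like nuclei, the next class. Endothelial-like nuclei held 0 of its UMIs, with an upper bound of 12.5 CPM by the exact Poisson interval (95%) for counting error. The difference between the first and second class was 5.81 ± 0.27 (log2, SE). P2ry13, a second ADP receptor, had 95.04, 198 and 189.9 CPM in sham and 119, 254 and 188 CPM in nephrectomy microglia-like nuclei. No value of another class reached the lowest of these, and the mean of 174 ± 57.9 CPM was 4.47 ± 0.39 (log2, SE) above that of oligodendrocyte precursor-like nuclei. P2ry6, the UDP receptor, was at 127, 410.3 and 316 CPM in sham and 168, 254 and 277 CPM in nephrectomy libraries, where the value of sham 1 rests on 4 UMIs. In the other 8 classes its mean was at most 4.46 CPM.

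Entpd1 was highest in microglia-like nuclei, at 386 ± 219 CPM (n = 6), and second in endothelial-like nuclei, at 88.2 ± 71.1 CPM (n = 4), a difference of 1.78 ± 0.36 (log2, SE). Endothelial-like nuclei in turn exceeded astrocyte-like nuclei (18.4 ± 8.31 CPM) by 2.36 ± 0.45 (edgeR adjusted p = 9.25e-07). Neuron classes were low, but striatal projection neuron-like nuclei (8.28 ± 1.84 CPM) exceeded excitatory neuron-like nuclei (2.41 ± 0.975 CPM) by 1.74 ± 0.25 (log2, SE; edgeR adjusted p = 4.2e-05). P2rx7 followed a descending order of glia: 147 ± 38.0 CPM in microglia-like nuclei, 70.1 ± 25.6 in oligodendrocyte precursor-like, 24.5 ± 9.47 in oligodendrocyte-like and 12.5 ± 2.78 in astrocyte-like nuclei. Each of these neighbours differed, by 1.03 ± 0.27, 1.34 ± 0.31 and 0.96 ± 0.23 on the log2 scale (edgeR adjusted p = 0.00111, 0.00211 and 0.00280). Excitatory neuron-like nuclei followed at 5.78 ± 0.952 CPM, below astrocyte-like nuclei by 1.17 ± 0.22 (log2, SE; edgeR adjusted p = 0.000422), and did not differ from inhibitory neuron-like nuclei beyond the spread (adjusted p = 0.380). The means of the last 4 classes lay between 3.28 and 4.74 CPM, and neighbouring pairs among them were under the filter on low counts. In the pairs of neighbours after the first, 38.8%, 44.9%, 60.6% and 34.3% of all genes passed.

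The microglial levels were set against the other 8 classes by edgeR's quasi-likelihood test with the library as a block. P2ry12, P2ry13, P2ry6 and Entpd1 were higher in microglia-like nuclei in 8 of 8 pairs, with the highest adjusted p at 9.73e-22, 9.34e-11, 1.13e-15 and 1.88e-06. P2rx7 was higher in 7 of the 7 pairs in which it could be tested (highest adjusted p = 0.00111). Of all genes tested, 40.1% passed against astrocyte-like, 55.6% against endothelial-like, 40.2% against excitatory neuron-like, 41.5% against inhibitory neuron-like, 50.4% against neuroblast or dividing-like, 38.2% against oligodendrocyte-like, 48.6% against oligodendrocyte precursor-like and 36.4% against striatal projection neuron-like nuclei. A passing pair is thus common. For P2ry12 the size of the difference ran from 5.61 to 6.36 (log2) over 7 classes, and no size is given against endothelial-like nuclei, which held 0 of its UMIs. It ran from 4.47 to 7.32 for P2ry13 and from 5.01 to 8.42 for P2ry6, from 1.78 to 6.65 for Entpd1 and from 1.03 to 5.04 for P2rx7.

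**Figure D1:**
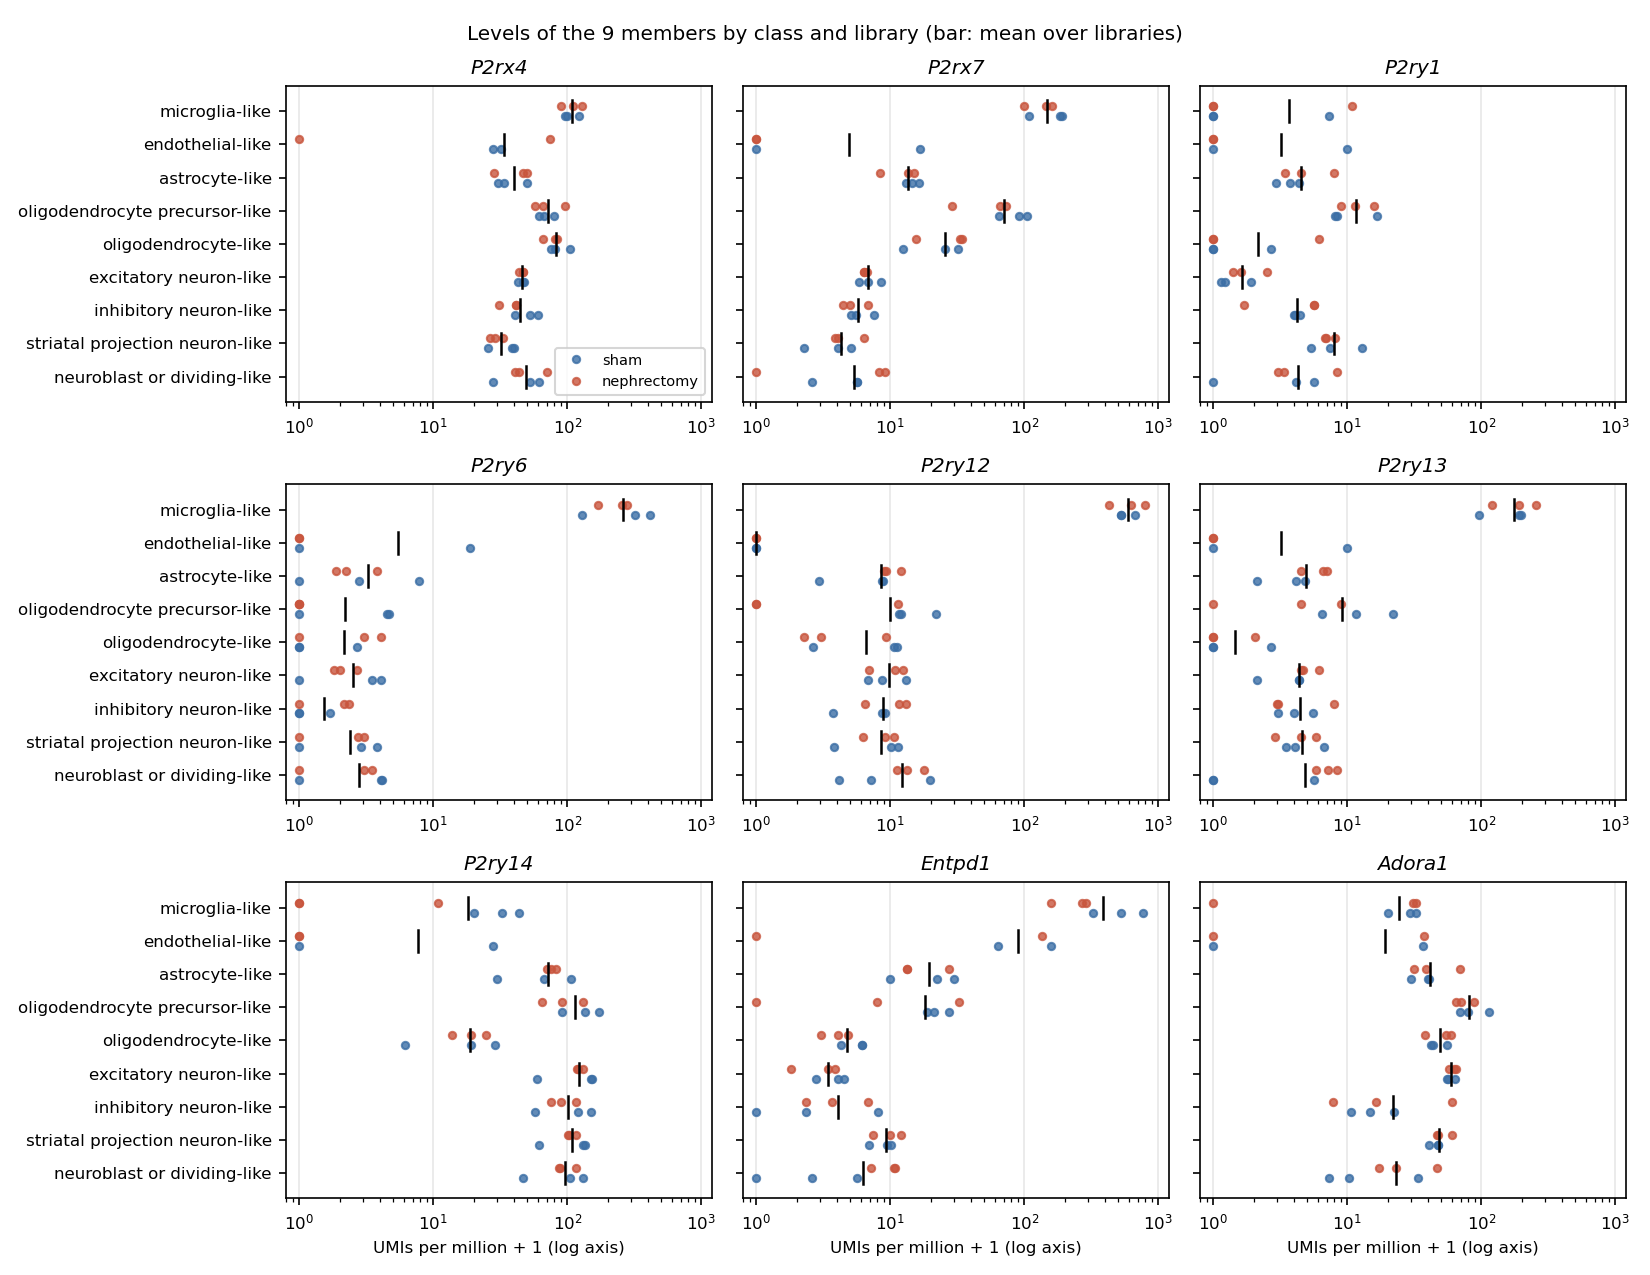
Levels of the 9 members in 9 classes, 1 panel per gene. The x axis is CPM plus 1 on a log scale, each point is 1 library (sham blue, nephrectomy red) and the black bar is the mean over libraries. P2ry12, P2ry13 and P2ry6 stand apart in microglia-like nuclei, while P2rx4, P2ry14 and Adora1 are spread over many classes.

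P2rx4, an ATP-gated channel known from microglia after nerve injury, did not share that pattern. Its level in microglia-like nuclei was 106 ± 15 CPM (n = 6; 52 UMIs), followed by 80.8 ± 12.6 CPM in oligodendrocyte-like and 70.2 ± 14.5 CPM in oligodendrocyte precursor-like nuclei. The first and second class did not differ beyond their spread (0.33 ± 0.25 log2, edgeR adjusted p = 0.328), and 0 of the 8 neighbouring pairs in its order passed. Of all genes, between 23.7% (neuroblast or dividing-like against excitatory neuron-like) and 50.4% (inhibitory neuron-like against astrocyte-like) passed in the neighbouring pairs, with 32.7% for precursor-like against neuroblast or dividing-like and 37.1% for both pairs with endothelial-like nuclei. Microglia-like nuclei did exceed 6 of 7 classes tested, among them oligodendrocyte precursor-like nuclei by 0.68 ± 0.27 (adjusted p = 0.0346). The lowest mean was 31.2 ± 6.19 CPM in striatal projection neuron-like nuclei.

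P2ry14, a receptor for UDP-glucose, had another order of classes than its neighbours in the cluster. It was at 121 ± 33.8 CPM in excitatory neuron-like, 113 ± 38.8 in oligodendrocyte precursor-like, 107 ± 26.9 in striatal projection neuron-like and 101 ± 33.4 CPM in inhibitory neuron-like nuclei, and at 17.2 ± 17.3 CPM in microglia-like nuclei (8 UMIs). The first 3 classes did not differ beyond their spread (edgeR adjusted p = 0.326 for the first against the second and 0.0920 for the first against the third). Excitatory neuron-like nuclei exceeded 6 of 8 classes, with microglia-like nuclei 3.33 ± 0.41 (log2, SE) below them. Of all genes tested against excitatory neuron-like nuclei, 60.6% passed in the pair with astrocyte-like, 39.3% with endothelial-like, 34.3% with inhibitory neuron-like, 23.7% with neuroblast or dividing-like, 59.6% with oligodendrocyte-like, 43.1% with oligodendrocyte precursor-like and 50.3% with striatal projection neuron-like nuclei. Sham 1 had the lowest P2ry14 level in 6 of the 8 classes with 6 libraries, at 58.7 CPM in excitatory neuron-like nuclei against 117 to 152 CPM in the other 5 libraries.

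In the classes with 6 libraries other than microglia-like, the genes inside Med12l stood to it in proportions of a narrow range, apart from P2ry12 in oligodendrocyte-like nuclei. For 1 UMI of Med12l there were between 0.945 and 1.59 UMIs of P2ry14, between 0.036 and 0.071 of P2ry13 and between 0.17 and 0.26 of Gpr171, another gene inside Med12l, in the 7 other classes with 6 libraries. P2ry12 gave between 0.095 and 0.13 in 6 of those 7, and 0.29 in oligodendrocyte-like nuclei (32 UMIs). In microglia-like nuclei the proportions were 3.08 for P2ry12, 0.98 for P2ry13, 0.093 for P2ry14 and 0.012 for Gpr171. Mural-like nuclei, which had too few nuclei for a level per library, gave 16 for P2ry14, from 48 UMIs against 3 of Med12l. Med12l itself was at 196 ± 70.5 CPM in microglia-like and 77.8 ± 7.88 CPM in excitatory neuron-like nuclei. What part Med12l reads have in the P2ry12, P2ry13 and P2ry14 levels of classes other than microglia-like was not tested.

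**Figure D2:**
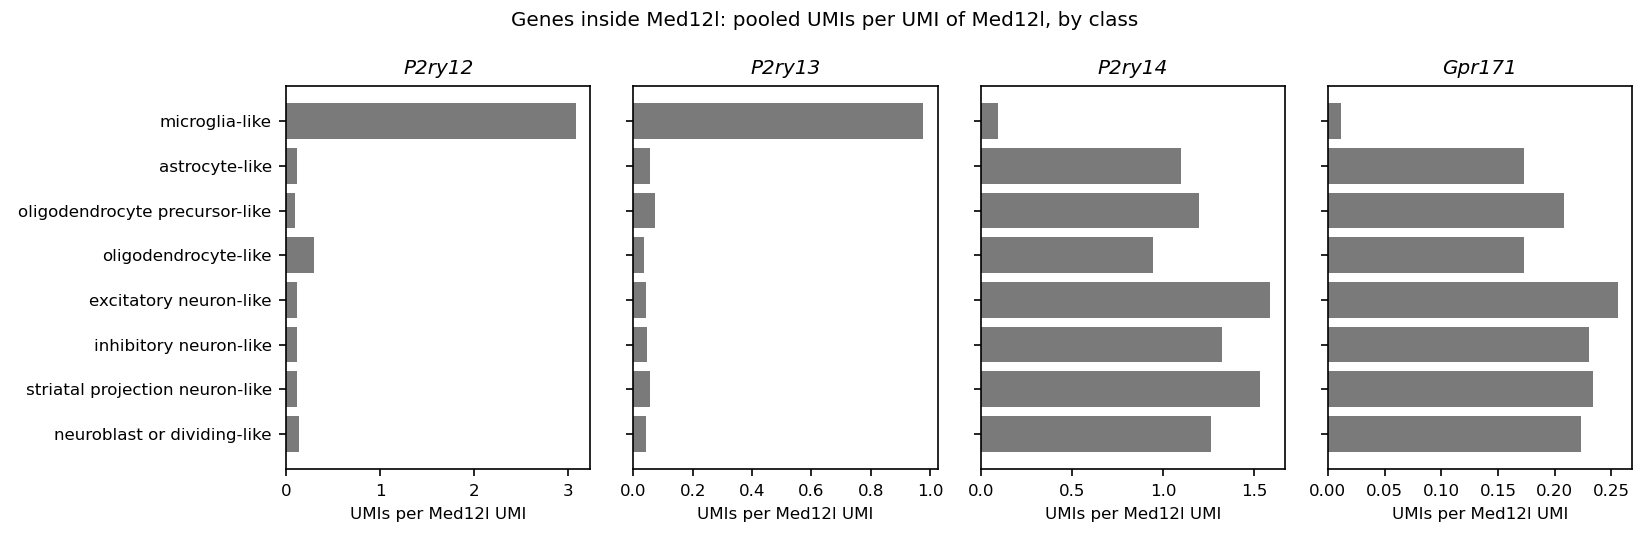
UMIs of P2ry12, P2ry13, P2ry14 and Gpr171 for each UMI of Med12l, summed over libraries, in the 8 classes with 6 libraries. Bars start at 0 and each panel has its own x axis. P2ry12 and P2ry13 rise to 3.08 and 0.98 in microglia-like nuclei, where P2ry14 and Gpr171 are lowest.

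RNA set free during nuclei isolation can carry microglial UMIs into other nuclei, and the level in excitatory neuron-like nuclei was therefore set against that in microglia-like nuclei. For the 14 microglial markers of the gate this was between 0.298% and 1.66%, with a median of 0.574%. The gate itself holds these markers down in neurons. P2ry6 at 0.551%, Entpd1 at 0.745% and P2ry12 at 1.59% lay inside that range. P2ry13 at 1.95% lay just above it, and P2rx7 at 4.28% and P2rx4 at 41.3% were further above. Whether the UMIs of these genes in excitatory neuron-like nuclei come from free RNA was not tested. Entpd1 in striatal projection neuron-like nuclei, which passed above excitatory neuron-like nuclei, held 8.09 CPM pooled over libraries against 333 CPM in microglia-like nuclei. After every nucleus was thinned to 500 UMIs, 23.9% of microglia-like nuclei were expected to hold a P2ry12 UMI against 0.417% of excitatory neuron-like nuclei (40.0% and 4.14% as deposited, at medians of 928 and 4598.5 UMIs).

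Adora1 was at 80.2 ± 18.4 CPM in oligodendrocyte precursor-like and 58.8 ± 4.0 CPM in excitatory neuron-like nuclei (n = 6). These first 2 classes did not pass (0.32 ± 0.16 log2, edgeR adjusted p = 0.0984), although all 6 values of the precursors lay above all 6 of the neurons. Oligodendrocyte-like nuclei (47.9 ± 8.69 CPM) and striatal projection neuron-like nuclei (47.6 ± 6.32 CPM) were lower than the precursors by 0.58 ± 0.20 and 0.62 ± 0.17 (log2, SE; adjusted p = 0.0230 and 0.00257; 38.8% and 42.1% of all genes passed in these pairs). The precursors exceeded 5 of the 6 classes tested, with 43.1%, 35.7%, 32.7% and 35.7% of all genes passing against excitatory neuron-like, astrocyte-like, neuroblast or dividing-like and inhibitory neuron-like nuclei. Inhibitory neuron-like nuclei had a wide spread, at 21.0 ± 19.3 CPM, where nephrectomy 1 stood at 59.1 CPM and the other 5 libraries between 6.82 and 21.2 CPM.

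P2ry1, an ADP receptor, gave 288 UMIs in all 24974 nuclei. Striatal projection neuron-like nuclei held 59.7% of them. Its mean was 6.94 ± 2.62 CPM there and 0.637 ± 0.515 CPM in excitatory neuron-like nuclei, and the 2 groups of 6 values did not overlap (3.37 ± 0.35 log2, edgeR adjusted p = 2.38e-06). Against astrocyte-like nuclei (3.48 ± 1.79 CPM) the difference was 0.87 ± 0.33 (adjusted p = 0.0383; 57.4% of all genes passed in this pair). Oligodendrocyte precursor-like nuclei had the highest mean, 10.6 ± 3.89 CPM from 16 UMIs, and exceeded excitatory neuron-like nuclei by 3.95 ± 0.59 (adjusted p = 1.99e-07), but their difference from striatal projection neuron-like nuclei was under the filter on low counts.

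Classes with too few nuclei for a level per library were summed over libraries, with exact Poisson intervals (95%) that cover counting error only. In 62 mural-like nuclei, cells of the vessel wall, P2ry14 gave 48 UMIs in 23 nuclei, or 305 CPM (225 to 404), while Med12l gave 3 UMIs. The 14 Entpd1 UMIs of these nuclei came from 3 nuclei, 12 of them from 1, and the 5 P2ry1 UMIs came from 1 nucleus. In 15 border macrophage-like nuclei P2rx4 gave 9 UMIs (357 CPM, 163 to 679), P2rx7 8 UMIs (318 CPM, 137 to 626) and P2ry6 5 UMIs (199 CPM, 64.5 to 463). The 8 P2rx7 UMIs came from 5 nuclei, 4 of them from 1 nucleus, and 6 of the 8 came from sham 3. Pooled in the same way, microglia-like nuclei had 108 CPM (80.4 to 141) of P2rx4 and 132 CPM (102 to 169) of P2rx7. P2ry12 gave 0 UMIs in the border macrophage-like nuclei, with an upper bound of the same interval at 146.5 CPM. That bound lies below the 425 CPM of the lowest microglia-like library. These are descriptions without a test.

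The genes most like each member over the 9 classes, by Pearson r of log2 (mean CPM + 1) among 12080 genes, were taken from the same nuclei, and r over 9 shared classes is a description only. For P2ry6 they were Ggt5 (0.997), Gm2629 (0.994) and Cd300c2 (0.993). For P2ry12 they were Gfm2 (0.998), Daglb (0.985) and Setd2 (0.981), and for P2ry13 Naa35 (0.981), Tubgcp5 (0.975) and Chd2 (0.973). Entpd1 was nearest to Ifngr1 (0.974), Ctbs (0.973) and 1700008J07Rik (0.969), and P2rx7 to Trub2 (0.986), 4930405A10Rik (0.974) and Klhl25 (0.967). P2rx4 was nearest to Mon2 (0.972), Zcwpw1 (0.968) and Rsrc1 (0.953), and P2ry14 to Map2 (0.986), Grik5 (0.984) and Mpp3 (0.980). For P2ry1 they were Cacng4 (0.926), Rcn1 (0.895) and Ntn1 (0.866), and for Adora1 Prtg (0.865), Dusp19 (0.864) and Rnf144a (0.848).

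The study's question, what kidney failure changes in brain cells, was addressed by comparing nephrectomy with sham libraries within each class. No member passed in any class (edgeR quasi-likelihood test, Benjamini-Hochberg adjustment over all genes tested, threshold 0.05; lowest adjusted p = 0.756). The background was the same: 0% of genes were called in each of the 9 classes, of which endothelial-like nuclei had 2 libraries a group. At an unadjusted p below 0.05 there were 87 of 1864 genes in microglia-like, 438 of 10252 in astrocyte-like and 832 of 14527 in excitatory neuron-like nuclei, and DESeq2 called 0 genes in every class. Of 81 pairs of a member and a class, 40 passed the filter on low counts. Their log2 fold changes had a median of 0.0011, with 19 below 0 and 21 above, and 1 of the 40 had an unadjusted p below 0.05. In microglia-like nuclei 5 members passed the filter, with a median of -0.12 against 0.02 over all genes tested.

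That 1 was Entpd1 in microglia-like nuclei. It was at 760.3, 524 and 323 CPM in sham libraries 1 to 3, from 24, 37 and 51 UMIs, and at 158, 286 and 266 CPM in nephrectomy libraries 1 to 3, from 16, 9 and 24 UMIs. The groups did not overlap, and sham 3 lay nearer to the nephrectomy libraries than to sham 1. The means were 536 ± 219 and 237 ± 68.8 CPM (SD, n = 3 each), a log2 fold change of -1.04 ± 0.36 (SE; edgeR unadjusted p = 0.0104, adjusted p = 0.756). Over 14 alternative settings the estimate stayed between -1.36 and -0.77 and the adjusted p between 0.485 and 1.000. Without sham 1, which has 20 microglia-like nuclei, it was -0.77. Restricted to the 4 shorter lists it came to -1.16, and between the 2 with long lists the values were 323 CPM in sham 3 and 158 CPM in nephrectomy 1. Of all genes tested in these nuclei, 5.79% had every nephrectomy library below every sham library and 4.35% the reverse.

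The share of microglia-like nuclei expected to hold an Entpd1 UMI after thinning to 500 UMIs was 31.8%, 23.97% and 14.8% in sham and 8.19%, 11.97% and 12.7% in nephrectomy libraries (exact permutation test, 2-sided p = 0.1, the smallest that 3 against 3 libraries allow). The unthinned shares were 65%, 42.4% and 23.95% against 22.8%, 25.0% and 21.7%. Summed microglial markers overlapped between the groups, at 8228 to 10074 CPM in sham and 6615 to 13158 CPM in nephrectomy libraries. Of the 7 border macrophage markers 4 were at 0 in these nuclei (Cd163, Lyve1, Pf4 and Cbr2), and their sum was at most 19.0 CPM in any library. Of the 14 endothelial markers 10 were detected, with Cdh5, Emcn, Erg and Tie1 at 0 and sums of 94.9 to 99.0 CPM in sham and 77.6 to 98.9 in nephrectomy libraries. Larger sums came from oligodendrocyte markers, at 444 to 1063 CPM in sham and 667 to 1266 CPM in nephrectomy libraries. Striatal projection neuron markers summed to 269 to 760 and 377 to 1028 CPM, and astrocyte markers to 348 to 677 and 443 to 763 CPM. Inhibitory neuron markers gave 241 to 444 and 127 to 662 CPM, and excitatory neuron markers 156 to 380 and 127 to 435 CPM. Erythrocyte markers ranged from 38.0 to 1288 CPM in sham and 49.4 to 191 CPM in nephrectomy libraries. The part of any of these signals in the result was not tested.

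P2ry12, P2ry13, P2ry6, P2rx7 and P2rx4 overlapped between the groups in microglia-like nuclei. P2ry12 averaged 571 ± 81.3 CPM in sham and 613 ± 185 CPM in nephrectomy libraries (0.15 ± 0.27 log2, SE), and P2ry13 161 ± 57.3 and 187 ± 67.8 CPM (0.08 ± 0.41). P2ry6 averaged 285 ± 144 and 233 ± 57.5 CPM (-0.34 ± 0.37, or -0.56 without sham 1, -0.14 without sham 2 and -0.20 without nephrectomy 1), and P2rx7 160.5 ± 45.9 and 134 ± 31.3 CPM (-0.12 ± 0.44). P2rx4 was under the filter, with 105 ± 13.6 and 108 ± 19.2 CPM. P2ry14 had every nephrectomy library (9.89, 0 and 0 CPM) below every sham library (31.7, 42.4 and 19.0 CPM), but from 8 UMIs in all.

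**Figure D3:**
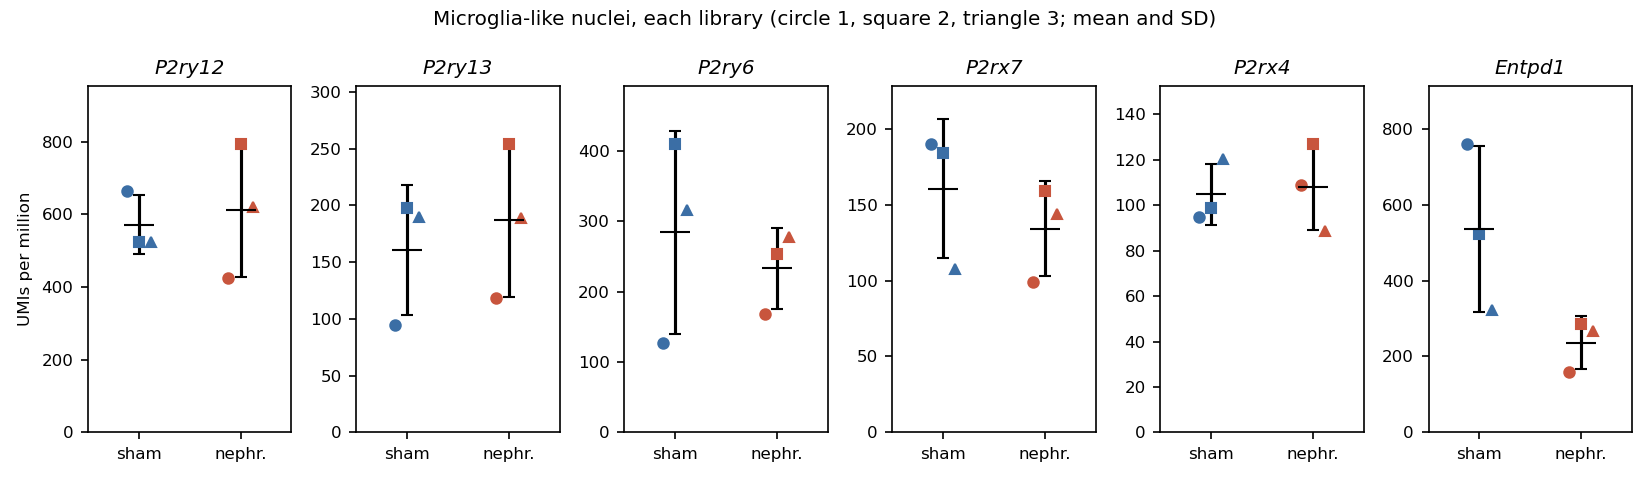
Levels of 6 members in microglia-like nuclei, in CPM on axes that start at 0. Points are libraries (circle 1, square 2, triangle 3), and lines show the group mean and SD. The 3 nephrectomy libraries lie below the 3 sham libraries for Entpd1, and the groups overlap in the other 5 panels.

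In the remaining classes P2rx7 in oligodendrocyte precursor-like nuclei was at 89.5, 103 and 64.2 CPM in sham and 64.6, 71.5 and 28.0 CPM in nephrectomy libraries. The groups overlapped, since nephrectomy 2 lay above sham 3. The change was -0.70 ± 0.39 (log2, SE; edgeR adjusted p = 0.902), which became -0.28 without nephrectomy 3 and -1.18 in the 4 libraries with fewer barcodes. P2rx4 in oligodendrocyte-like nuclei averaged 86.0 ± 15.2 and 75.7 ± 9.34 CPM (-0.23 ± 0.25, or -0.073 without sham 2 and -0.093 without nephrectomy 1), and Adora1 in oligodendrocyte precursor-like nuclei 86.8 ± 23.8 and 73.5 ± 12.4 CPM (-0.17 ± 0.32). Adora1 in inhibitory neuron-like nuclei had a log2 fold change of 0.86 ± 0.69 (adjusted p = 0.829), a value that turned to -0.49 without nephrectomy 1. Nephrectomy 1 had the highest Adora1 level in 5 of the 8 classes with 6 libraries. The 7 excitatory neuron markers, all detected in inhibitory neuron-like nuclei, summed to 73.2 to 163 CPM in sham and 83.5 to 515 CPM in nephrectomy libraries, and their part in the result was not tested. P2ry14 in excitatory neuron-like nuclei averaged 120 ± 52.8 and 122 ± 7.36 CPM (0.0021 ± 0.27), and P2ry1 in striatal projection neuron-like nuclei 7.57 ± 3.93 and 6.32 ± 0.702 CPM (-0.31 ± 0.44), which became 0.27 without sham 1.

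P2ry13 in excitatory neuron-like nuclei was at 1.11, 3.34 and 3.35 CPM in sham and 3.65, 3.49 and 5.10 CPM in nephrectomy libraries. The groups did not overlap (0.60 ± 0.41 log2, SE; edgeR adjusted p = 0.881; 0.27 without sham 1), as was the case in the same direction for 7.87% of all genes tested in this class. In the 81 pairs of a member and a class the nephrectomy libraries were all lower in 3 (P2ry12 in oligodendrocyte precursor-like, P2ry14 and Entpd1 in microglia-like nuclei) and all higher in 4 (P2ry12 in astrocyte-like, P2ry13 in excitatory neuron-like, P2ry13 and Entpd1 in neuroblast or dividing-like nuclei). Of these, all but Entpd1 in microglia-like and P2ry13 in excitatory neuron-like nuclei rest on at most 49 UMIs in all 6 libraries. These low-count pairs were also under the filter, while the shares that follow cover only genes that passed it. Every nephrectomy library lay below every sham library for 3.77% of all genes in astrocyte-like, 12.5% in endothelial-like, 4.23% in excitatory neuron-like, 5.32% in inhibitory neuron-like, 4.41% in neuroblast or dividing-like, 4.24% in oligodendrocyte-like, 5.82% in oligodendrocyte precursor-like and 4.3% in striatal projection neuron-like nuclei. Above every sham library it was 6.23%, 18%, 7.87%, 6.16%, 4.73%, 5.22%, 5.44% and 7.04% in the same order.

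**Figure D4:**
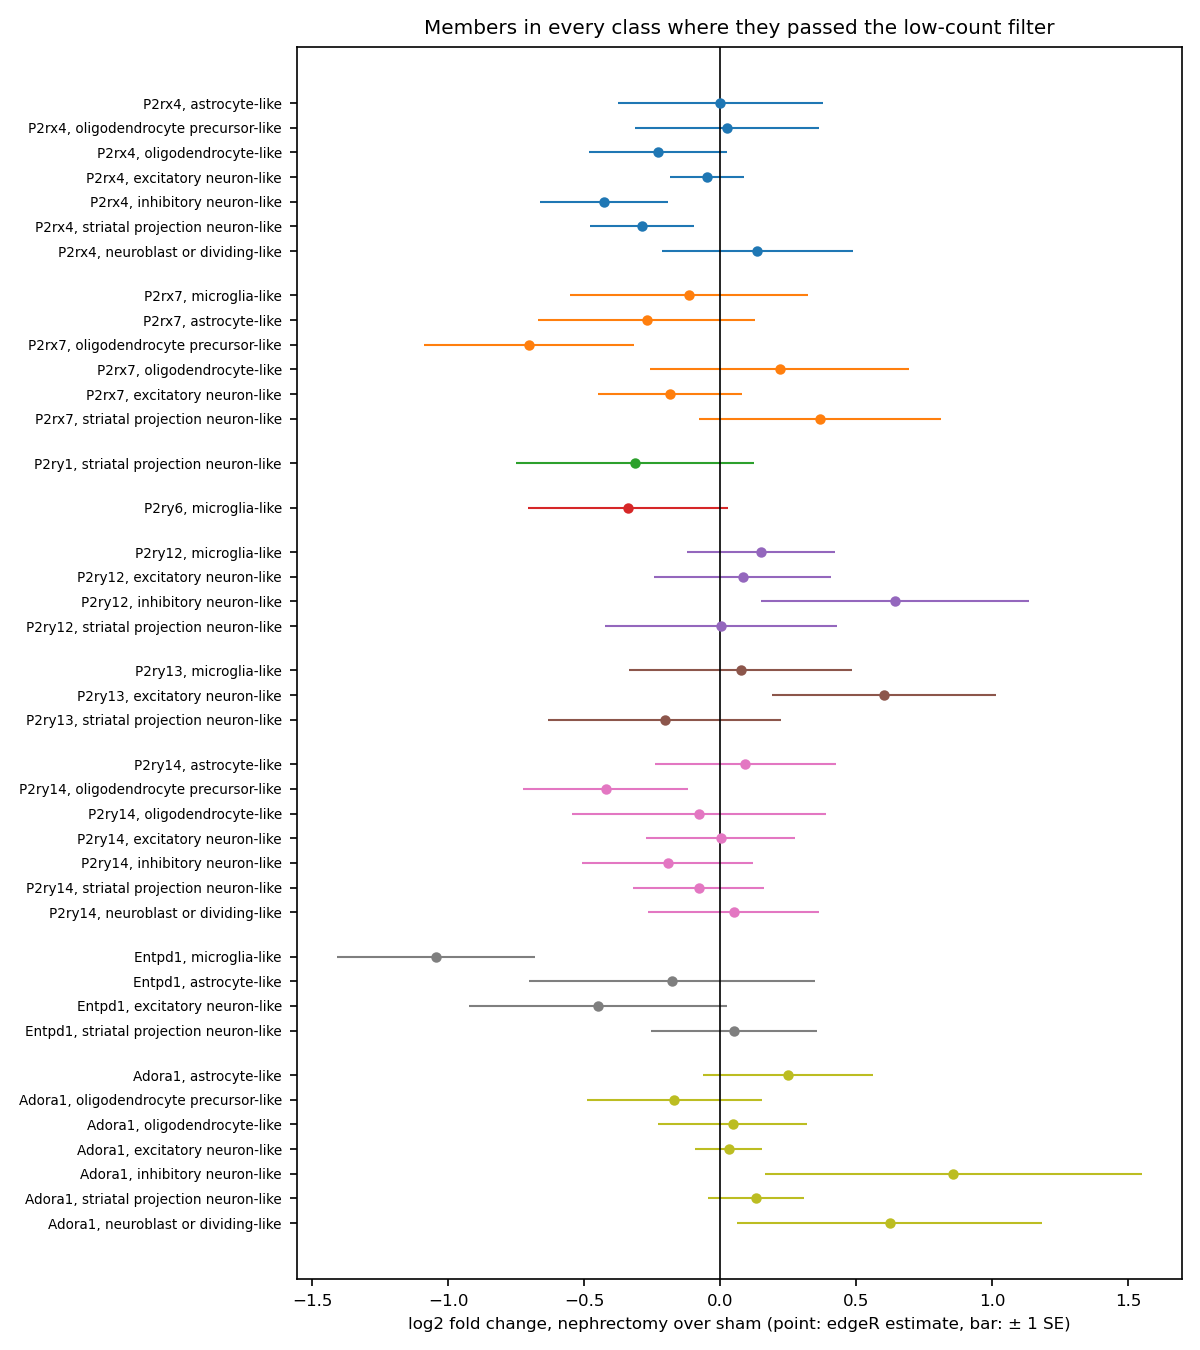
Log2 fold changes of nephrectomy over sham for the 40 pairs of a member and a class that passed the filter on low counts. Points are edgeR estimates and bars are 1 SE to each side, coloured by gene. Entpd1 in microglia-like nuclei is the lowest at -1.04 and Adora1 in inhibitory neuron-like nuclei the highest at 0.86 with the widest bar.

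The rest of the purinergic list held 30 genes: further receptors, ectonucleotidases, release channels, nucleoside transporters and enzymes of adenosine. In 67 pairs of a gene and a class that passed the filter, 0 were called, 2 had an unadjusted edgeR p below 0.05, 35 were below 0 and 32 above. These 2 were Slc29a1, an adenosine transporter, in neuroblast or dividing-like nuclei (-1.39 ± 0.52 log2, SE; adjusted p = 1.000) and Adk, adenosine kinase, in oligodendrocyte precursor-like nuclei (-0.95 ± 0.40; adjusted p = 0.883), named after their values were seen. By level, 15 of the 30 reached 20 CPM in some class. Adenosine receptors divided by class, with Adora2a highest in striatal projection neuron-like (93.7 ± 25.3 CPM, n = 6) and Adora3 in microglia-like nuclei (67.4 ± 46.1 CPM). The ectonucleotidase Nt5e, which makes adenosine from AMP, was highest in striatal projection neuron-like nuclei (38.8 ± 6.14 CPM). Entpd2 was highest in astrocyte-like nuclei (94.2 ± 29.8 CPM), Entpd5 in oligodendrocyte-like (39.7 ± 8.59 CPM) and Entpd6 in neuroblast or dividing-like nuclei (98.5 ± 29.2 CPM). Oligodendrocyte-like nuclei also led for Enpp2 (1143 ± 241 CPM), which makes lysophosphatidic acid, and Enpp1 (22.5 ± 10.6 CPM), and endothelial-like nuclei for the phosphatase Alpl (76.0 ± 25.7 CPM, n = 4) and the channel subunit Lrrc8a (65.1 ± 25.2 CPM). The release channels Panx1 and Panx2 were highest in oligodendrocyte precursor-like (24.5 ± 11.7 CPM) and neuroblast or dividing-like nuclei (26.7 ± 8.42 CPM). Adk was highest in astrocyte-like nuclei (142 ± 28.9 CPM), and Slc29a1 (43.4 ± 37.6 CPM) and Pnp (48.3 ± 33.7 CPM) in microglia-like nuclei.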

How the data were processed

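Nuclei of brain, isolated by FACS, were captured with the Chromium 3' kit (version 3.1) and mapped to mm10 with introns included, per the labels' protocols. The sources name different Cell Ranger versions: 6.0.1 per the file headers, 3.0 per the extract protocol and 2.1.1 per the processing notes. The deposited values are raw UMI counts per gene and nucleus. Kept were nuclei in which 500 or more genes were detected and mitochondrial genes gave no more than 5% of UMIs. A nucleus entered a class with at least 3 UMIs from at least 2 of its markers. Its marker rate had to reach 10% of the class reference (the median of the top 100 nuclei). Every other class with at least 3 marker UMIs had to lie at most at 50% of its own. Inhibitory neuron markers were exempt from this limit in striatal projection neuron-like nuclei. There they summed to 718 to 763 CPM in sham and 859 to 935 CPM in nephrectomy libraries. UMIs were summed per library and class. No doublet caller was used beyond this rule, except in an alternative. Nephrectomy and sham were compared with edgeR 4.0.16 (quasi-likelihood, TMM, filterByExpr) in R 4.3.3, and classes with library as a block. DESeq2 1.42.0 was an alternative. The fits were tested on simulated data. For microglia-like nuclei the fit of nephrectomy against sham recovered 25.6% of simulated 2-fold and 94.4% of 4-fold changes. Those were 78 and 89 changed genes among 1593 tested, and recovery with fewer changed genes was not tested. Of 2-fold changes the fit recovered 38.9% in oligodendrocyte precursor-like, 11.5% in oligodendrocyte-like and 57.7% in excitatory neuron-like nuclei. In the last class 9.1% of the calls were unchanged genes. Members of the list were all named, the other purinergic genes from a mean of 20 CPM in some class, and the 3 genes most like each member. The members, markers and lists were chosen with earlier results of these data known.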

Additional observations from a re-analysis of the deposited data

Results flagged for a closer look

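For Entpd1 the 2 groups of libraries were apart in opposite directions in 2 classes, the first did not pass and the second was under the filter on low counts, and the difference between the classes was not tested. In microglia-like nuclei the nephrectomy mean minus the sham mean was -299 CPM, with every nephrectomy library lower, and in neuroblast or dividing-like nuclei it was 6.46 CPM (2.08 ± 2.36 in sham, 8.54 ± 2.095 in nephrectomy, SD, n = 3 each; 15 UMIs in all), with every nephrectomy library higher. Of all genes tested, 5.79% had every nephrectomy library lower in the first class and 4.73% every one higher in the second. For P2ry12 the difference was -10.7 CPM in oligodendrocyte precursor-like nuclei (14.2 ± 5.91 in sham, 3.498 ± 6.06 in nephrectomy; 16 UMIs) and 3.25 CPM in astrocyte-like nuclei (5.83 ± 3.38 in sham, 9.08 ± 1.67 in nephrectomy; 49 UMIs), again without overlap and without a test of the difference. P2ry12 was under the filter on low counts in both classes. Among the genes that passed the filter, 5.82% had every nephrectomy library lower in the first class and 6.23% every one higher in the second. In the precursor-like nuclei the 14 microglial markers summed to 135 to 247 CPM in sham and 74.6 to 133 CPM in nephrectomy libraries, also without overlap. In astrocyte-like nuclei these sums overlapped, at 40.4 to 88.9 and 47.2 to 103 CPM. The part of microglial UMIs in either P2ry12 difference was not tested. No outlier test was run within a group, since each group has 3 libraries.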

How the results depend on the processing

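The number of genes called between nephrectomy and sham was 0 in each class as reported, and stayed at 0 in 70 of 77 values under other settings and in 49 of 52 that leave out 1 library. Without the filter on low counts it was 3 in endothelial-like, 1 in microglia-like, 9 in neuroblast or dividing-like and 2 in oligodendrocyte precursor-like nuclei. With the 4 libraries with short barcode lists alone it was 1 in astrocyte-like, 1 in microglia-like and 1 in oligodendrocyte precursor-like nuclei. Leaving out 1 library gave 0 to 16 in endothelial-like (16 without sham 2, 3 without sham 3) and 0 to 1 in microglia-like nuclei (1 without nephrectomy 1); with 1 library left in an arm, its spread is assumed to equal that of the other. No member was among the genes called. With the sample number as a replicate block the count was 0 in each class and no call changed; Entpd1 in microglia-like nuclei was -1.01. The correlations of same-numbered libraries, after the group means were taken off, ran from -0.413 to 0.313 over the classes and were of both signs. Deviations from the mean of so few libraries are bound to each other, so these values cannot decide whether the numbers mark pairs. The numbers were not treated as pairs because no label says that they are. Sham 3 and nephrectomy 1, with the long barcode lists, correlated at 0.119 (neuroblast or dividing-like) to 0.460 (oligodendrocyte-like) in the classes with 6 libraries.

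Of 12 member fold changes followed, some turned sign. P2ry13 in microglia-like nuclei became -0.046 without the filter and -0.016 without the nuclei of highest doublet score. P2ry14 in excitatory neuron-like nuclei, at 0.0021 as reported, became -0.0059 with DESeq2 size factors, -0.0054 with the DESeq2 test and -0.0082 without the filter. Adora1 in inhibitory neuron-like nuclei became -0.078 in the 4 libraries with short lists. Leaving out 1 library, P2ry12 in microglia-like nuclei ranged from -0.016 to 0.30, P2ry13 from -0.099 to 0.25 and P2rx7 from -0.42 to 0.029. P2ry1 in striatal projection neuron-like nuclei ranged from -0.68 to 0.27, P2ry14 in excitatory neuron-like nuclei from -0.30 to 0.18, Adora1 in oligodendrocyte precursor-like nuclei from -0.37 to 0.045 and Adora1 in inhibitory neuron-like nuclei from -0.49 to 1.27. With their sign kept, P2rx7 in oligodendrocyte precursor-like nuclei ranged from -0.96 to -0.28, P2rx4 in oligodendrocyte-like nuclei from -0.34 to -0.073, P2ry6 in microglia-like nuclei from -0.56 to -0.14, Entpd1 there from -1.36 to -0.77 and P2ry13 in excitatory neuron-like nuclei from 0.27 to 0.85. With the 4 libraries with short lists alone P2rx7 was -1.18 and P2ry6 -0.13, and with at least 1000 genes P2rx4 was -0.060. The cause was not tested. The highest class was the same for 8 or 9 of 9 members under each setting. P2ry1 moved to endothelial-like nuclei with at least 1000 genes, at 12.3 CPM against 10.4 CPM in oligodendrocyte precursor-like nuclei. That endothelial-like level was pooled over 40 nuclei, and all 265 endothelial-like nuclei of the main gate held 2 P2ry1 UMIs. P2ry14 moved to oligodendrocyte precursor-like nuclei without nephrectomy 2. With at least 1000 genes 96 microglia-like nuclei remained, and their pooled levels of P2rx4, P2rx7 and P2ry12 were 123, 103 and 431 CPM. That setting for microglia-like and endothelial-like nuclei, the stricter gate for neuroblast or dividing-like nuclei and the 4 libraries for endothelial-like nuclei could not be fitted.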
